A study of Rattus norvegicus with 8 samples.

Results

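Lung RNA of rats after 48 h at a simulated altitude of 30000 ft was measured on 2 of the 8 two-colour arrays of the series. The pair was chosen by its labelled duration. The animals had first received cobalt (12.5 mg per kg body weight) or normal saline for 7 days, and each array compared the hypoxia RNA of 1 pretreatment with 0 h RNA of the same pretreatment in its other channel. The other arrays held 6, 12 and 24 h of hypoxia, 1 array for each pretreatment and duration. The labels give neither the strain nor the number of animals behind an RNA, and all 4 arrays of a pretreatment were set against 0 h RNA of that pretreatment. The study asks how the lung transcriptome responds to hypobaric hypoxia and whether cobalt, a metal ion that stabilises hypoxia-inducible factors, alters that response.

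Every ratio below is log2 of hypoxia over 0 h, so a value of 1 is a doubling and 0 no difference. Hypoxia RNA carried the red dye on the saline arrays, which shared slide 1 and 1 scan, and the green dye on the cobalt arrays, which shared slide 2 and another scan. Pretreatment, slide, scan and dye therefore cannot be told apart in a difference between cobalt and saline arrays. A dye bias common to both slides cancels in the mean of both 48 h arrays, and it also cancels in the difference between 48 h and earlier hours of 1 pretreatment. The labels give the 0 h RNA 1 control name on all 4 arrays of a pretreatment, but do not say whether it was 1 preparation.

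Low oxygen stabilises the transcription factors HIF-1 and HIF-2, which raise genes of glycolysis, iron and matrix handling and, in the kidney, of red cell production. In the lung, pulmonary arteries constrict within minutes, and days of exposure bring remodelling of vessel walls, in which smooth muscle, fibroblasts and endothelial cells take part. Stress genes that respond within hours usually return toward baseline, while matrix and contractile genes follow later.

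The probes of the 5 genes called in a test of 48 h against earlier hours are shown first, with that of RT1-CE10, which was not called but had a course like that of A_43_P16181. Each is a 60-base oligonucleotide of the array design, with rat genome coordinates of build rn3 as in the deposited files, and for Gal the first 30 bases are given. The Ankrd1 probe lay at chr1:240490714-240490773 on the minus strand, the Olfml3 probe at chr2:198922476-198923028 on the minus strand, where its bases are spread over 553 bases of genome, and the Gal probe at chr1:206089883-206089942 on the minus strand. The RT1-CE10 probe lay at chr20:3469272-3469331 on the plus strand. Probe A_43_P16181 at chr20:4677081-4677139 (minus strand) and probe A_44_P342809 at chr10:71374985-71377227 (minus strand, spread over 2243 bases) carry no gene symbol here.
Ankrd1: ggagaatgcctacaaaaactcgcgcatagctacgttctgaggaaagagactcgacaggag
Olfml3: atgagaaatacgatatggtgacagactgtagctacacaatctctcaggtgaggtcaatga
Gal: agtcattctaggctaaaaagaatcttccgc
RT1-CE10: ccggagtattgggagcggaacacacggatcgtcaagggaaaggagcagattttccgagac
A_43_P16181: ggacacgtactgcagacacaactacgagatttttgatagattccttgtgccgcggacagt
A_44_P342809: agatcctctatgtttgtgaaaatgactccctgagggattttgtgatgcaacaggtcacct

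Green signals were well above background for 56.5% to 65.7% of an array's spots and red ones for 62.1% to 71.1%, and 24162 genes were bright enough to be tested, of which 12067 carried a gene symbol. All 14 genes of the surfactant and type II cell list, which mark lung alveoli, were among them. On the cobalt 48 h array 288 genes were at least 1 higher and 147 at least 1 lower than 0 h, and on the saline 48 h array 524 were higher and 365 lower. Ratios were tested with limma over all 8 arrays, and a gene was called where its p, adjusted by Benjamini-Hochberg over all genes, was under 0.05. In the tests of 48 h against 0 h and against earlier hours, the standard error comes from how far arrays departed from a pattern in which cobalt and saline arrays differ by the same amount at every duration. A gene can therefore pass while its values on both 48 h arrays lie far apart, and the spread between animals and that of the 0 h RNA enter no p-value.

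At 48 h, 188 genes (0.778% of those tested) were called higher and 176 (0.728%) lower than 0 h in the mean of both pretreatments, 1.51% in all. Genes of the contractile apparatus, matrix cross-linking, activin antagonism and kinin precursors were among the higher ones, and genes of endothelium, prostaglandin breakdown and xenobiotic metabolism among the lower ones. Of the called genes, 184 of the higher and 172 of the lower had 1 sign on both 48 h arrays. The counts rest on both arrays of 48 h: without the cobalt 48 h array 11 higher and 1 lower passed, and without the saline 48 h array 10 and 1. Without the saline 24 h array the counts were 87 and 63, and without the cobalt 24 h array 97 and 69.

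Ankrd1, a muscle ankyrin repeat protein that is induced by stretch and is a target of the YAP co-activator, had the highest estimate among genes with a symbol. Its ratio was 3.59 on the cobalt 48 h array and 2.86 on the saline 48 h array, a mean of 3.23 ± 0.13 (SE) or 9.36-fold (limma, adjusted p = 0.00028). Ntrk2, the receptor for brain-derived neurotrophic factor, was at 2.31 on the cobalt and 2.54 on the saline array (2.42 ± 0.11, adjusted p = 0.00054), and it lay between 1.93 and 2.63 on all 8 arrays. These were the only genes of the 20 with the highest and lowest estimates whose call held in all 17 alternatives, including those that leave out a 48 h array. A second Ntrk2 probe gave 1.40.

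Tuba8, an alpha-tubulin isoform, was at 3.01 on the cobalt and 2.52 on the saline array, although its second probe gave a mean of 0.75. Slurp1, a secreted epithelial protein that acts on nicotinic receptors, was at 3.28 on the cobalt and 2.07 on the saline array. Slurp1 and the keratin Krt14 (1.72 on cobalt, 0.13 on saline; called at 0.93) are abundant in squamous epithelium. Krt5 and Krt13 of the same tissue list stood at -0.19 and 0.21 on the cobalt and -0.01 and 0.01 on the saline array, and 5 of that list's 10 genes were bright enough to test. The part of neighbouring tissue in these values was not tested.

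Kng1 and Kng2, the precursors of bradykinin and of the rat T-kinins, rose together. Kng1 was at 2.20 on the cobalt and 2.71 on the saline array (2.46 ± 0.30, adjusted p = 0.022), and Kng2 at 2.09 and 2.68. The transcripts are near-identical, so the probes may take up each other's RNA. Nrn1, a neuronal surface protein, and Amd1, the decarboxylase that feeds polyamine synthesis, were called at 2.23 and 1.96.

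**Figure D1:**
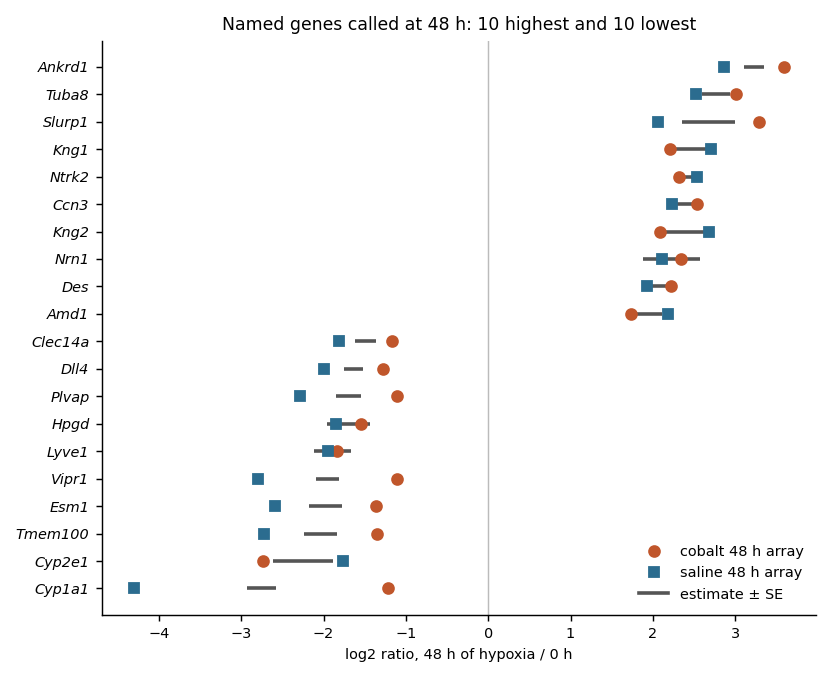
Genes with a symbol that passed at 48 h and had 1 sign on both arrays, the 10 with the highest and the 10 with the lowest estimates. The x axis is the log2 ratio of 48 h of hypoxia over 0 h; circles are the cobalt array, squares the saline array and bars the limma estimate ± SE. Ankrd1 stands at 3.59 on the cobalt and 2.86 on the saline array, and Cyp1a1 stands at -1.22 on the cobalt array, where its hypoxia signal was not well above background, and -4.30 on the saline array.

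Of 12 tested smooth muscle genes, 6 were called higher at 48 h (0.778% of all genes) and none lower (0.728%). The list's median was 1.15 against -0.01 for all genes. Above 0 on both arrays were 11 of the 12, against 5569 of all 24162 genes. In RNA of whole tissue, more or fewer cells of a type and more or less RNA per cell cannot be told apart. Desmin (Des), the intermediate filament of muscle, was at 2.22 on the cobalt and 1.93 on the saline array (2.07 ± 0.13, adjusted p = 0.0022). Actg2, the enteric smooth muscle actin, was at 1.77 on the cobalt and 1.78 on the saline array. The calponin gene Cnn1, the actin-binding gene Tagln, the tropomyosin gene Tpm2 and the myosin light chain gene Myl9 were called at 1.66, 1.37, 1.34 and 1.32. Myh11, the smooth muscle myosin heavy chain, did not pass, at 1.26 on the cobalt and 0.10 on the saline array. Against the mean of earlier hours the list's median difference at 48 h was 0.07, and it turned to -0.09 when arrays were scaled to a common spread.

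Several of these genes are also expressed in heart, whose genes were high on the saline 48 h array. Myh6, the atrial myosin heavy chain of the rat, was at -0.07 on the cobalt and 3.73 on the saline 48 h array, and the atrial light chain Myl7 at -0.13 and 3.93, the cobalt value of Myl7 not being well above background in the hypoxia channel. On the same cobalt array Ankrd1 stood at 3.59, Des at 2.22 and Actg2 at 1.77. The part of heart muscle in these values was not tested.

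Matrix genes were the next group. Of 31 tested members 9 were called higher (0.778% of all genes) and none lower (0.728%) at 48 h, with a median of 0.67. Above 0 on both arrays were 20 of the 31, against 5569 of all 24162 genes. Loess normalization matters here. With median centring the list's median was -0.18 on the cobalt 48 h array, where the median of all genes moved to -0.46. In the mean of both arrays the list's median stayed above 0 under each of the other scalings. Lox, which cross-links collagen and elastin, was at 1.90 on the cobalt and 1.46 on the saline array (1.68 ± 0.10, adjusted p = 0.0022), and its relative Loxl2 was called at 0.96. The matricellular genes Ccn3 and Ccn2 were called at 2.39 and 1.64; Ccn2 was at 1.31 on the cobalt and 1.96 on the saline array. Fibronectin (Fn1), the collagen genes Col4a1 and Col5a1, fibrillin-1 (Fbn1) and the protease Adamts1 were called between 0.67 and 1.01.

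In the activin, TGF-beta and BMP list, 4 of 26 members were called higher (0.778% of all genes) and 2 lower (0.728%), with a median of 0.19. Both secreted activin antagonists were above 0 h. Follistatin (Fst) was at 1.97 on the cobalt and 1.69 on the saline array (1.83 ± 0.13, limma, adjusted p = 0.0034), and Fstl3 at 1.49 and 1.39. For Fst the 48 h value was the lowest of each pretreatment. At earlier hours it lay between 2.66 and 2.96 on cobalt and between 2.18 and 2.61 on saline. Ltbp2, which sits on fibrillin microfibrils, was called at 1.24. The ligand gene Bmp2 was called at 1.03, from 2.28 on the cobalt and -0.22 on the saline array. Smad6, an inhibitor of BMP signalling, was at -0.61 on the cobalt and -1.88 on the saline array and was called at -1.25. The ligand gene Bmp6 was called at -0.69.

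Coagulation and acute phase genes gave 4 calls, all higher (0.778% of all genes), among 22 members with a median of 0.11. Besides both kininogens they included tissue factor, F3 (0.28 on cobalt, 1.18 on saline). Among 22 cytokine and chemokine genes, the monocyte attractant Ccl2 (1.06 on cobalt, 2.31 on saline) and Cxcl12 (1.50 on cobalt, 0.61 on saline) were called higher, the second probe of Cxcl12 giving a mean of 0.22. The epithelial alarmin Il33 was called lower, at -0.82 on the cobalt and -0.92 on the saline array. Macrophage markers were above 0 in 12 of 17 cases on cobalt and in 17 of 17 on saline. Of all 24162 genes, 10723 and 12502 were. At an unadjusted p under 0.05, 6 markers were higher (10.2% of all genes), and none passed in limma.

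The counts for classical hypoxia genes differed between lists. No glycolysis gene of 21 passed, although 12 were higher at an unadjusted p under 0.05 (10.2% of all genes) and none lower; the list's median was 0.38. The glucose transporter Slc2a1 stood at 0.56 on the cobalt and 0.68 on the saline array and lactate dehydrogenase Ldha at 0.72 and 0.52. Among 31 other genes of the HIF pathway, 4 were called higher and 2 lower, where 1.51% of all genes were called, with a median of -0.02. The higher ones included the mitophagy receptor Bnip3 (0.74 on cobalt, 1.13 on saline), the collagen prolyl hydroxylase P4ha2 (0.77 on cobalt, 1.06 on saline) and Loxl2. Endothelin-1 (Edn1), a vasoconstrictor, and Epas1, which encodes HIF-2 alpha, were called lower. Edn1 was at -1.80 on the cobalt and -0.97 on the saline array (-1.39 ± 0.13, adjusted p = 0.0099), and Epas1 at -0.29 and -1.72.

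Other calls were spread over metabolism and transport. In cholesterol and fatty acid synthesis, Idi1 (1.50 on cobalt, 0.95 on saline) and the demethylase gene Cyp51 (0.99 on cobalt, 0.77 on saline) were called higher. At an unadjusted p under 0.05, 14 of 25 members were higher (10.2% of all genes) and none lower (10.7% of all genes). The salt-regulating kinase Sgk1 was called at 1.03 and the water channel gene Aqp1 at 0.97, Aqp1 being at 1.84 on the cobalt and 0.10 on the saline array. Among vasoactive genes, Agt, the precursor of angiotensin, was at -0.49 on the cobalt and -1.27 on the saline array and was called at -0.88.

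The genes called lower were led by Cyp1a1, a xenobiotic-metabolising enzyme, at -1.22 on the cobalt and -4.30 on the saline array. Its hypoxia signal on the cobalt 48 h array was not well above background, so that array shows only that it was at least 2.33-fold lower than 0 h. Cyp2e1, another member of the family, was at -2.73 on the cobalt and -1.77 on the saline array (-2.25 ± 0.36, adjusted p = 0.041). Vipr1, a receptor for vasoactive intestinal peptide, was at -1.11 on the cobalt and -2.80 on the saline array. Hpgd, which inactivates prostaglandins, was at -1.55 on the cobalt and -1.85 on the saline array.

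Of the 10 lowest estimates, 4 belonged to genes of the endothelial list: Tmem100, Lyve1, Plvap and Clec14a. Esm1 and Dll4, also known from endothelium, are not on that list. Tmem100, a target of BMP9 signalling in endothelium, was at -1.35 on the cobalt and -2.73 on the saline array (-2.04 ± 0.20, adjusted p = 0.012). The tip cell gene Esm1 was at -1.36 and -2.58, the lymphatic hyaluronan receptor Lyve1 at -1.84 and -1.94, the diaphragm protein gene Plvap at -1.11 and -2.28, the Notch ligand Dll4 at -1.28 and -1.99 and the lectin Clec14a at -1.17 and -1.82, in each case on the cobalt and then the saline array. Of 32 tested genes of the endothelial and adhesion list, 4 were called lower (0.728% of all genes) and none higher (0.778%), with a median of -0.28. At an unadjusted p under 0.05 in limma, 14 were lower (10.7% of all genes) and 4 higher (10.2%). Above 0 were 21 of the 32 on the cobalt and 3 on the saline array, against 10723 and 12502 of all 24162 genes. The list as a whole did not move alike on both arrays: its median was 0.13 on cobalt and -0.90 on saline, and with median centring these turned to -0.77 and 0.05.

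T and NK cell genes were below 0 on both arrays in 18 of 18 cases, against 6506 of all 24162 genes. Their median was -0.56 on the cobalt and -0.49 on the saline array. With median centring the saline median was 0.07 and that of all genes 0.34. Only the perforin gene Prf1 passed, at -0.63 on the cobalt and -1.21 on the saline array (-0.92 ± 0.12, adjusted p = 0.024), and 11 of 18 were lower at an unadjusted p under 0.05, against 10.7% of all genes.

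Over all 24162 genes tested, called ones included, the ratios of both 48 h arrays correlated at 0.08 (Pearson) and 0.02 (Spearman). Genes share arrays and are not independent replicates, and 12075 genes (50%) had the same sign on both arrays. Hypoxia RNA carried opposite dyes on these arrays, so a dye bias of a single gene moves its ratios apart. The part of dye in the low correlation was not tested. At least 1 in size on both arrays were 63 genes that were higher (0.261%), 30 that were lower (0.124%), 13 lower on cobalt and higher on saline (0.0538%), and 20 higher on cobalt and lower on saline (0.0828%). With median centring, which leaves dye effects that depend on brightness in place, the last 2 counts became 1774 and 3. The genes with the largest agreement were Ankrd1, Tuba8, Ntrk2, Ccn3 and Kng1 on the higher side. On the lower side they included Lyve1, Cyp2e1, Hpgd and the muscle isoform of a cytochrome oxidase subunit, Cox8b (-1.58 on cobalt, -1.60 on saline), which was not called. The 3 probes of Cox8b gave means between -1.59 and -0.15.

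**Figure D2:**
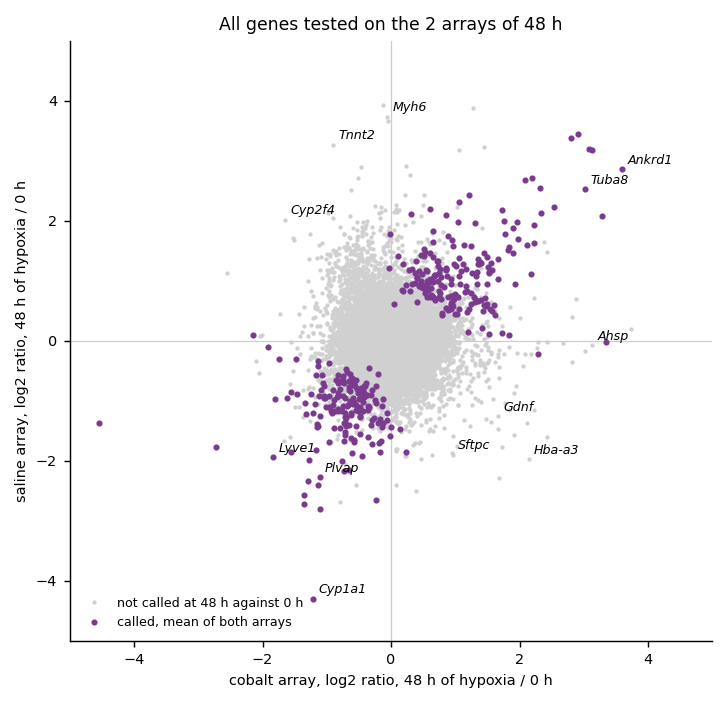
Every gene tested on the arrays of 48 h. The x axis is the log2 ratio of hypoxia over 0 h on the cobalt array and the y axis that on the saline array; purple points passed in the mean of both. Called genes lie mostly in the upper right and lower left, Hba-a3 and Sftpc lie at lower right and Tnnt2 and Cyp2f4 at upper left, and the correlation over all points is 0.08.

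What set 48 h apart from 6, 12 and 24 h was tested as the 48 h ratio minus the mean of the earlier ones. Only 2 genes were called higher (0.00828%) and 1 lower (0.00414%), while at an unadjusted p under 0.05 there were 1519 (6.29%) and 1381 (5.72%). Ankrd1 climbed with time: on cobalt it was at 0.59, 0.65, 2.63 and 3.59 at 6, 12, 24 and 48 h, and on saline at -0.52, -0.29, 1.30 and 2.86. Its 48 h value exceeded the mean of earlier hours by 2.50 ± 0.14 (adjusted p = 0.0084). Olfml3, a secreted olfactomedin-domain glycoprotein of the matrix, was at -1.36, -0.97, -0.51 and 0.86 on cobalt and at -2.23, -2.38, -1.70 and 0.06 on saline (1.99 ± 0.16, adjusted p = 0.047). It was below 0 h at every earlier hour and back at or above it at 48 h.

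Galanin (Gal), a neuropeptide, ran the other way. It was at 3.05, 2.33, 0.76 and -0.40 on cobalt and at 3.45, 2.30, 0.80 and -0.17 on saline at 6, 12, 24 and 48 h, a late difference of -2.40 ± 0.14 (adjusted p = 0.0084). At 48 h it no longer differed detectably from 0 h (-0.28 ± 0.12, adjusted p = 0.24). Of the 17 alternatives, 10 kept the late call of Ankrd1, 9 that of Gal and 5 that of Olfml3, none of them changing sign. For Olfml3 the call held without the cobalt 12 h array and ended without any 1 of the other 7 arrays. Leaving out the cobalt 6 h, cobalt 48 h, saline 24 h or saline 48 h array ended the late calls of both Ankrd1 and Gal, and leaving out either the saline 6 h array (Ankrd1) or the cobalt 24 h array (Gal) ended 1 of them.

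**Figure D3:**
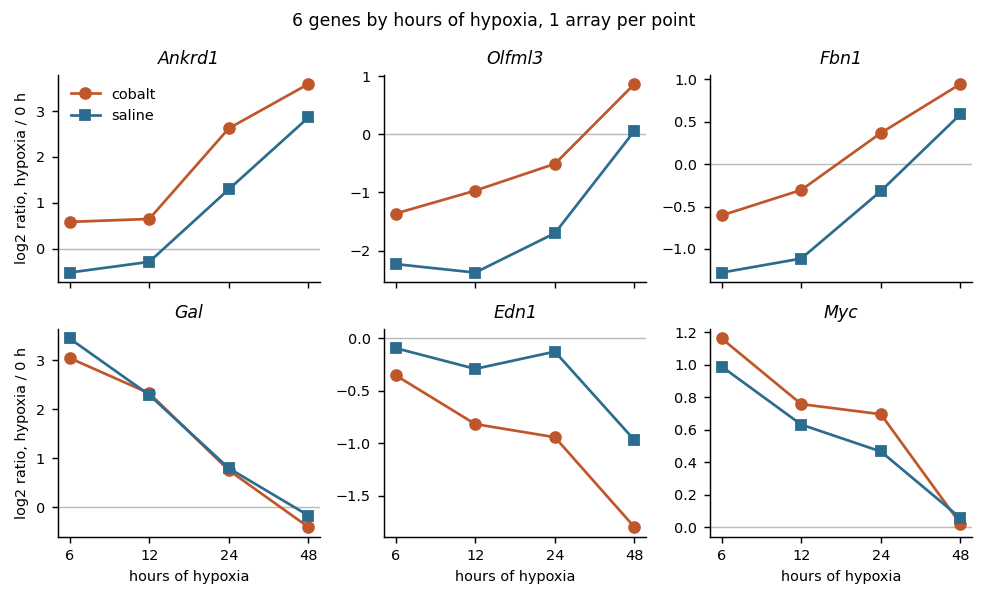
Log2 ratio of hypoxia over 0 h against hours of hypoxia, cobalt as circles and saline as squares, 1 array per point and the hours evenly spaced. Ankrd1, Olfml3 and Fbn1 climb to their highest value at 48 h in both pretreatments, while Gal, Edn1 and Myc reach their lowest value there; of these, Ankrd1, Olfml3 and Gal passed the test of 48 h against earlier hours.

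No gene of the matrix list passed against earlier hours in limma. At an unadjusted p under 0.05 there were 14 of 31 higher (6.29% of all genes) and 3 lower (5.72%). Fbn1 was at -0.60, -0.30, 0.37 and 0.94 on cobalt and -1.28, -1.11, -0.32 and 0.59 on saline (late difference 1.31 ± 0.13, adjusted p = 0.084). Col1a2, a chain of type I collagen, was at -1.05, -0.73, -0.30 and 0.38 on cobalt and -1.52, -0.90, -0.81 and 0.61 on saline (1.38 ± 0.17, adjusted p = 0.10). Col1a1, Col3a1 and the elastic fibre gene Fbln5 had late differences of 1.66, 0.84 and 1.56. The 48 h value lay above all 3 earlier ones in both pretreatments for 15 of 31 matrix genes, against 12.2% of all genes, and below them for 2. The list's median late difference was 0.24 on cobalt and 0.60 on saline, and its mean stayed above 0 in all 17 alternatives. Lox and Ccn2, by contrast, were already at 3.24 and 1.74 on cobalt and at 2.72 and 2.21 on saline at 6 h.

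Some DNA replication and cell cycle genes had their highest values at 48 h. In 14 of 36 members the 48 h value lay above all earlier ones in both pretreatments, against 12.2% of all genes. It lay below them in none, against 12.3% of all genes. At an unadjusted p under 0.05, 14 were higher than in earlier hours (6.29% of all genes). The replicative helicase subunit Mcm6 was at -0.57, -0.80, -0.31 and 0.34 on cobalt and -0.50, -0.27, -0.59 and 0.73 on saline (1.04 ± 0.18, adjusted p = 0.17). The transcription factor E2f1 was at -0.38 on the cobalt and 0.94 on the saline 48 h array, 0.84 ± 0.15 above its earlier mean (adjusted p = 0.19). The median late difference of the list was 0.27 on cobalt and 0.79 on saline, but against 0 h the 48 h medians were -0.36 on cobalt and 0.72 on saline. No member was called either against 0 h or against earlier hours.

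Immediate early and glucocorticoid-responsive genes had median late differences below 0 in both pretreatments. Of 22 immediate early genes, 13 were below all 3 earlier values in both pretreatments (12.3% of all genes) and none above, with a median late difference of -0.45 on cobalt and -0.61 on saline. The proto-oncogene Myc was at 1.16, 0.76, 0.69 and 0.02 on cobalt and 0.99, 0.63, 0.47 and 0.06 on saline (-0.74 ± 0.11, adjusted p = 0.15). Junb and Gadd45b had late differences of -0.71 and -0.64. Among 18 glucocorticoid-responsive genes 8 were below all earlier values and 2 above, with a median of -0.50 on cobalt and -0.57 on saline. The cell cycle inhibitor Cdkn1a was at 1.68, 0.63, 0.54 and 0.04 on cobalt and 2.15, 1.15, 0.28 and 0.08 on saline (-1.01 ± 0.18, adjusted p = 0.18). The acute phase gene Orm1, which was dim, Cebpd, Errfi1 and Klf9 had late differences between -1.09 and -0.77. At an unadjusted p under 0.05, 11 immediate early and 8 glucocorticoid-responsive genes were lower than in earlier hours (5.72% of all genes), none of them passing in limma, and their medians kept their sign in all 17 alternatives.

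Of the genes called at 48 h against 0 h, 1 (Ankrd1) was also called against earlier hours. Edn1 and Agt reached their lowest values at 48 h in both pretreatments, with late differences of -0.95 and -0.75. Ltbp2 was at 0.10, 0.17, 0.57 and 1.34 on cobalt and -0.51, -0.42, 0.80 and 1.14 on saline, highest at 48 h.

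**Figure D4:**
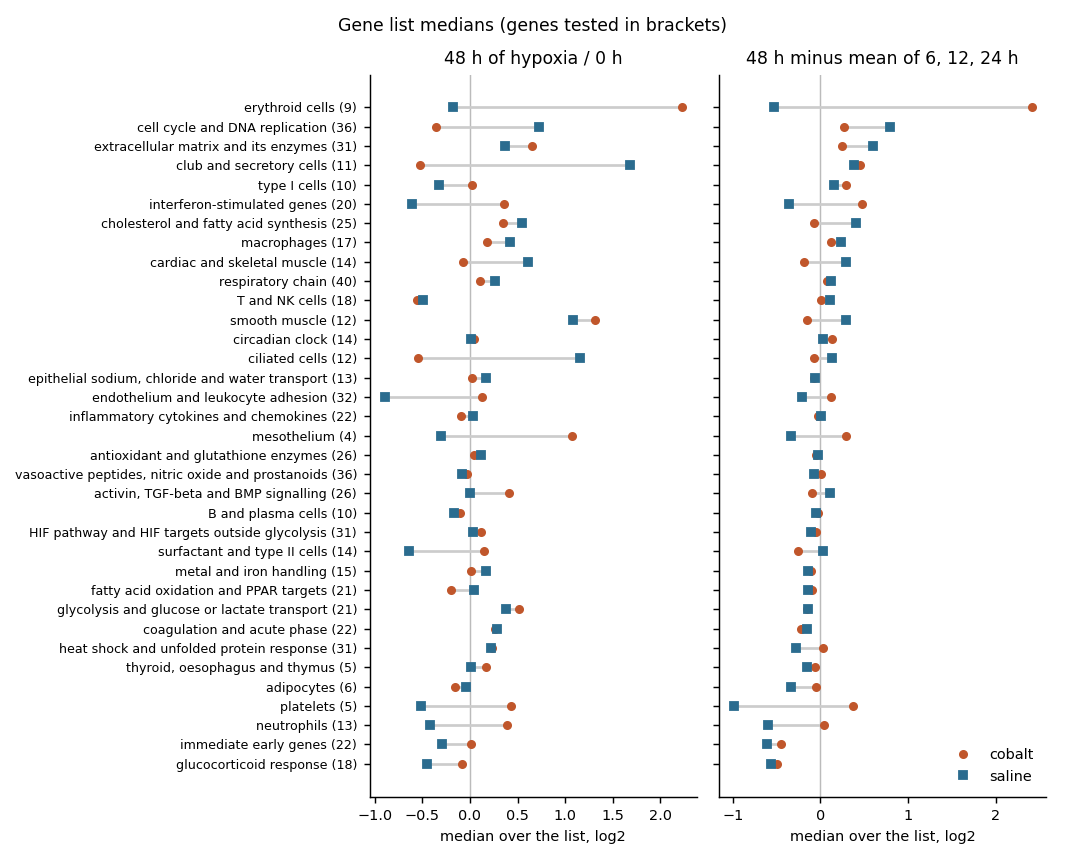
Medians of 35 gene lists, cobalt as circles and saline as squares, with the number of genes tested in brackets. The left panel is the log2 ratio of 48 h of hypoxia over 0 h and the right panel 48 h minus the mean of 6, 12 and 24 h. Erythroid genes lie far apart (2.23 on cobalt, -0.18 on saline at left), smooth muscle genes lie above 1 in both pretreatments, and at right platelet genes lie lowest on saline (-0.99) while immediate early and glucocorticoid-responsive genes lie between -0.61 and -0.45 in both pretreatments.

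The cobalt 48 h ratio minus the saline 48 h ratio was called higher for 106 genes (0.439%) and lower for 99 (0.41%), 0.848% in all. Each side of this test is 1 array, whose spread is taken from the differences among the 6, 12 and 24 h arrays within each pretreatment. With median centring these counts became 2522 and 11972, the median of all genes then being -0.46 on cobalt and 0.34 on saline. Single earlier arrays also set them: the counts lay between 9 and 22 higher and 4 and 10 lower without the cobalt 6 h, cobalt 12 h, cobalt 24 h or saline 24 h array, and were 254 and 241 without the saline 6 h and 211 and 382 without the saline 12 h array. In 182 of these 205 genes all 4 cobalt arrays lay above, or all below, the 4 saline arrays, as they did in 31.9% of all genes. Sftpc, the surfactant protein C gene and a saturated probe, was at 1.65, 1.64, 1.42 and 0.96 on cobalt and -1.80, -1.75, -1.72 and -1.90 on saline at 6, 12, 24 and 48 h, a difference of 2.87 at 48 h that was 0.14 with median centring. Its second probe was at 0.16 on the cobalt and -0.04 on the saline 48 h array, so the probes of Sftpc disagree. Crym, a thyroid hormone-binding protein, stayed between -1.41 and -1.27 on cobalt and between 1.08 and 1.68 on saline. The club cell enzyme Cyp2f4 was at -1.65 on the cobalt and 2.01 on the saline 48 h array, the nasal and lung enzyme Cyp2a3 at -1.51 and 1.68, and the ciliary gene Rsph1 at -0.39 and 1.93. Club cell genes had a median of -0.52 on cobalt and 1.68 on saline and ciliated cell genes of -0.55 and 1.16, each with its sign kept under all 4 other scalings. Earlier hours had the same split. Club cell medians then lay between -0.40 and -0.09 on cobalt and between 0.42 and 1.59 on saline. Ciliated cell medians lay between -0.71 and -0.28 on cobalt and between 0.80 and 1.51 on saline. Vegfa, an endothelial growth factor and HIF target, was at 0.21 on the cobalt and -1.47 on the saline array (difference 1.68, adjusted p = 0.048); its difference turned to -0.15 with median centring.

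Genes of red cells were high on the cobalt 48 h array. All 9 tested genes of the list were above 0 there, with a median of 2.23, against 1 of 9 and -0.18 on the saline 48 h array. Of all 24162 genes, 10723 were above 0 on the cobalt and 12502 on the saline 48 h array. Ahsp, the chaperone of alpha-haemoglobin, was at -0.38, 0.34, 1.13 and 3.13 on cobalt and -0.98, 0.14, 1.06 and -0.08 on saline. Slc4a1, the anion exchanger of the red cell membrane, was at -0.61, -0.84, 1.09 and 3.02 on cobalt and -0.52, 0.54, 1.20 and -0.18 on saline. Klf1, the erythroid transcription factor, was at -0.21, -0.17, 0.13 and 2.29 on cobalt and -0.14, 0.11, 0.34 and -0.02 on saline. Its difference between the 48 h arrays passed (2.31, adjusted p = 0.027), but its late difference in cobalt minus that in saline did not (2.50 ± 0.31, adjusted p = 0.19). The haemoglobin gene Hba-a3, saturated on at least 1 array, was at 2.14 on the cobalt and -1.97 on the saline 48 h array (difference 4.11, adjusted p = 0.021), with the cobalt arrays higher at every duration. The brighter Rhag probe was not well above background in the 0 h channel of either array and was at least 2.83-fold higher on the cobalt 48 h array. On the saline 48 h array its 2 probes had opposite signs, 0.32 and -0.12, and on the cobalt array the second probe was at 0.78. Among other blood cell lists, medians were 0.43 on cobalt and -0.51 on saline for 5 platelet genes and 0.39 and -0.43 for 13 neutrophil genes. With median centring these were -0.39 and -0.02 for platelets and -0.17 and -0.28 for neutrophils. T and NK cell genes (-0.56 on cobalt, -0.49 on saline) and B and plasma cell genes (-0.10, -0.16) lay close together. Macrophage genes lay the other way (0.18 on cobalt, 0.42 on saline). The amount of blood in each RNA was not tested.

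Cardiac genes were high on the saline 48 h array and on the saline 12 h array. Myh6 was at -0.09, 0.13, -0.20 and -0.07 on cobalt and -0.12, 2.85, 0.23 and 3.73 on saline at 6, 12, 24 and 48 h. The ventricular myosin gene Myh7 was at -0.47 on the cobalt and 2.89 on the saline 48 h array, and the troponin gene Tnnt2 at -0.90 and 3.26 (difference -4.16, adjusted p = 0.034). Nppa, the atrial natriuretic peptide gene, was not well above background in hypoxia RNA on either 48 h array. Of 14 tested genes of the cardiac and skeletal muscle list, 3 were above 0 on the cobalt and 13 on the saline 48 h array. Of all 24162 genes, 10723 and 12502 were. Rat pulmonary veins have a coat of cardiac muscle, and the amount of vein or heart in each RNA was not tested.

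**Figure D5:**
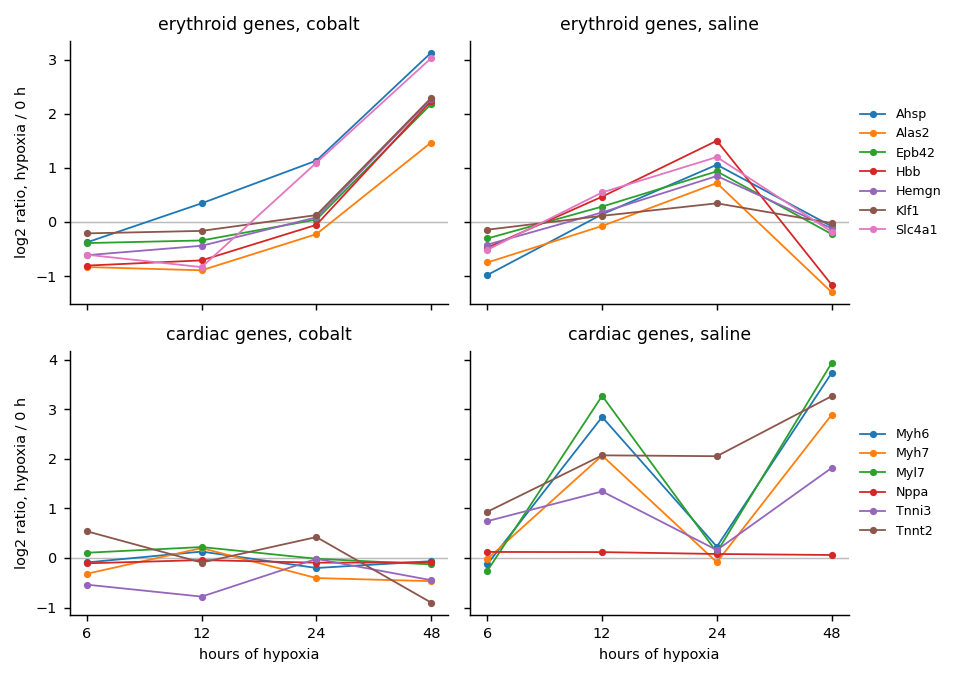
Log2 ratio of hypoxia over 0 h against hours of hypoxia for 7 erythroid genes (top) and 6 cardiac genes (bottom), cobalt at left and saline at right, 1 array per point. On cobalt the erythroid genes reach between 1.47 (Alas2) and 3.13 (Ahsp) at 48 h, and on saline they peak at 24 h and lie at or below 0 at 48 h; cardiac genes other than Nppa are high on saline at 12 and 48 h, and Tnnt2 also at 24 h.

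Whether the step between earlier hours and 48 h differed between pretreatments was tested as the late difference on cobalt minus that on saline. Of all genes, 1 was called higher and 1 lower (0.00414% each), and at an unadjusted p under 0.05 there were 319 (1.32%) and 323 (1.34%), 2.66% in all. Its spread also comes from the 6, 12 and 24 h arrays. Both calls ended without the cobalt 6 h, cobalt 12 h, cobalt 24 h or saline 24 h array, adjusted p then being 0.12 to 0.29. Probe A_43_P16181 was at -0.26, -0.17, -0.16 and -0.09 on cobalt and at -3.12, -3.04, -3.03 and 0.25 on saline (difference -3.21 ± 0.25, adjusted p = 0.030). RT1-CE10, a class I gene of the rat major histocompatibility complex, which lies on the same chromosome, had a like course: -0.14, -0.25, -0.07 and -0.21 on cobalt, where its 48 h hypoxia signal was not well above background, and -3.06, -2.68, -2.91 and -0.62 on saline (-2.31 ± 0.27, adjusted p = 0.13). On both probes the saline arrays of 6, 12 and 24 h lay between -3.12 and -2.68 and the saline 48 h array stood apart from them. Probe A_44_P342809 was at -0.04, -0.01, 0.02 and 1.68 on cobalt and between -0.15 and 0.20 on saline (1.94 ± 0.17, adjusted p = 0.038), dim in both channels of the saline 48 h array. The chemokine gene Cxcl11 was at -0.11 on the cobalt array, dim in the hypoxia channel, and at 0.83 on the saline 48 h array (-0.98 ± 0.13, adjusted p = 0.23).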

How the data were processed

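Per the labels, total RNA of rat lung was hybridised to 8 two-colour arrays of 60-base probes, 1 for each pretreatment and duration. Per the file headers, Agilent Feature Extraction 9.5.1.1 gave each spot's intensity in both channels and its local background, in scanner units. The deposited LogRatio column is, per the file headers, a log10 ratio, red divided by green, that the software had already corrected for background and dye. It served only to check directions. The deposited series matrix holds log2 ratios with a median of 0 on every array. Its scale and direction are read from the values: turned to hypoxia over 0 h by the dyes in the labels, the software's ratio correlated with it at over 0.99 on all 8 arrays.

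In limma 3.58.1 (R 4.3.3), normexp with an offset of 50 corrected the background, and loess, leaving out control spots, normalized each array. Outlier spots were dropped after that step, and ratios were turned to hypoxia over 0 h. Of 41012 probes, 28440 passed, having a signal well above background in red or green on 4 or more arrays. The brightest probe stood for each of 24162 genes, 3476 of which had several probes and 236 a saturated signal, which was kept. Gene symbols came from RefSeq through accession (10735 probes), symbol (5571) or synonym (3729); 20977 probes kept the name in the files.

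48 h against 0 h and 48 h against earlier hours were fitted with duration as a factor and pretreatment as a covariate (3 residual degrees of freedom), the differences between pretreatments with cell means (4), all with a variance trend over intensity. Where a channel was not well above background, a lower bound was computed against the higher of its own level and the lowest level of a probe well above background. Lungs taken at different hours come from different rats, but the labels give no count of animals and no group holds a repeated array. Spread between animals of the same group was therefore not measured apart from technical spread, and the number of arrays limits precision.

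The text names the 10 highest and 10 lowest called genes with a symbol by rule (5 and 5 for the difference at 48 h, 3 by lowest p where fewer than 3 passed), the 5 with the largest agreement or opposition, up to 4 members of each list by lowest p, and chosen genes; further list members and the 2 unnamed probes were named after their values were seen. Rules, members and all lists were chosen with earlier results of these data known. Some genes that the rules name are not reported here. Fits were tested on simulated data. The alternatives were the series matrix, no background subtraction, median centring, scaling between arrays, other filters, the mean over probes, cell means, no variance trend, and leaving out each array.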

Additional observations from a re-analysis of the deposited data

Results flagged for a closer look

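Differences between cobalt and saline arrays were singled out where the test of the difference passed. In the step between earlier hours and 48 h, 1 gene was called higher and 1 lower in cobalt than in saline. These were probe A_44_P342809 at 1.94, whose 48 h ratios also differed between the arrays by 1.83, and probe A_43_P16181 at -3.21. Probe A_44_P342809 was not well above background in either channel of the saline 48 h array and was so in the hypoxia channel on only 2 of 8 arrays, so its sizes are those of a dim signal, and its step did not pass with the series matrix. In the 48 h ratio itself 106 genes were called higher and 99 lower on cobalt, a comparison in which pretreatment, slide, scan and dye cannot be told apart.

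Among named genes, the higher ones on cobalt included the haemoglobin gene Hba-a3 (difference 4.11) and the neurotrophic factor gene Gdnf (2.93, from 1.67 on cobalt and -1.26 on saline). They also included Sftpc (2.87), the volume-regulated anion channel gene Lrrc8a (2.82), Bmp2 (2.49), Klf1 (2.31), Junb (1.74) and Vegfa (1.68). For Cyp1a1 the computed difference was 3.08, but its cobalt hypoxia signal was not well above background, so that no size can be given, and the series matrix gave 0.98 (adjusted p = 0.66, limma). With median centring the differences of Hba-a3, Gdnf, Sftpc and Junb were 1.35, 1.35, 0.14 and 0.15. The lower ones included Tnnt2 (-4.16), Cyp2f4 (-3.66), Cyp2a3 (-3.19), the mitotic gene Ckap2 (-3.04) and Fbxo36 (-2.68). Crym (-2.63), Rsph1 (-2.32), the secretoglobin gene Scgb3a2 (-1.80) and Cxcl11 (-0.94) were also lower. The second probe of Lrrc8a was at 0.48 on the cobalt and -0.53 on the saline 48 h array, and that of Sftpc at 0.16 and -0.04.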

How the results depend on the processing

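No named limma call of 48 h, against 0 h or against earlier hours, changed sign in any of 17 alternatives. Most ended when either 48 h array was left out. For 48 h against 0 h, several alternatives could not change a sign. Leaving out an earlier array, cell means and no variance trend all keep that estimate at the mean of both 48 h arrays. Where a 48 h array was left out, the difference between pretreatments at earlier hours stood in for it. With the series matrix, 1 gene was called higher at 48 h than earlier, 0 were called in either direction for that step between pretreatments, and the 48 h ratios differed for 43 higher and 27 lower genes; 187 genes were at least 1 higher and 177 at least 1 lower on both arrays, 258 were lower on cobalt and higher on saline, and 98 the reverse. Without background subtraction, 1 gene was called higher at 48 h than earlier and 2 were lower in the step between pretreatments. With median centring, 335 genes were called lower than 0 h, 1 higher and 0 lower than earlier hours, 5 lower in the step between pretreatments, and 2522 higher and 11972 lower between the 48 h arrays; 36 were at least 1 higher on both, 1774 lower on cobalt and higher on saline and 3 the reverse, and the Vegfa difference was -0.15. With scaling between arrays, 49 genes were called higher and 44 lower than 0 h, 1 higher and 0 lower than earlier hours, 0 lower in the step between pretreatments, and 16 higher and 23 lower between the 48 h arrays. With no filter 3 genes were lower in that step, and with the strict filter 0 were higher. Cell means gave 1 higher and 0 lower against earlier hours. Without a variance trend 1 was higher against earlier hours and 0 were higher in the step between pretreatments.

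Leaving out 1 array at a time gave 10 to 252 genes higher and 1 to 247 lower than 0 h, 0 to 7 higher and 0 to 3 lower than earlier hours, 0 to 2 higher and 0 to 5 lower in the step between pretreatments, and 9 to 254 higher and 4 to 382 lower between the 48 h arrays. The cause of these moves was not tested beyond the loss of an array. No paired analysis was possible because each group holds 1 array and the labels carry no replicate numbers; the fit with duration as a factor already matches cobalt and saline arrays of 1 duration. Signals near background on either channel compress ratios, as for Cyp1a1 and Orm1, and saturated signals limit Sftpc and Hba-a3.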

Other observations

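Some gene groups had values on the 48 h arrays that none of the comparisons above describe. Interferon-stimulated genes had a median of 0.36 on the cobalt and -0.61 on the saline 48 h array, which median centring turned to -0.46 and 0.10, over 20 genes. Ifit1 was at -0.37, -0.54, 0.30 and 1.91 on cobalt and at -0.59, 1.46, -0.54 and -1.58 on saline at 6, 12, 24 and 48 h. Rsad2, another antiviral gene, was at 2.00 on the cobalt and 0.38 on the saline 48 h array, and at 3.14 on the saline 12 h array. Mesothelial genes lay above 0 on the cobalt 48 h array in 4 of 4 cases and in none on the saline one. Of all 24162 genes, 10723 lay above 0 on the cobalt and 12502 on the saline array. Upk3b was at 1.30 on cobalt and -0.40 on saline.

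Hsd11b2, which inactivates glucocorticoids, was lowest early and least displaced at 48 h, at -1.65, -1.54, -1.57 and -0.91 on cobalt and at -3.04, -2.80, -2.01 and -0.96 on saline. The clock gene Nr1d1 was at 1.39 on the cobalt and -0.32 on the saline 48 h array, each the highest value of its pretreatment. The macrophage marker Adgre1 was at -1.08, -1.08, -0.63 and -0.04 on cobalt and at -0.93, -0.74, -0.50 and 0.29 on saline. Osteopontin (Spp1), a secreted matrix protein, was at 1.44 on the cobalt and 3.23 on the saline 48 h array and did not pass against 0 h (adjusted p = 0.094, limma).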
